A study of Homo sapiens with 6 samples.

Results

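The 4 mature miRNAs hsa-miR-105-5p, hsa-miR-105-3p, hsa-miR-767-5p and hsa-miR-767-3p are both arms of the miRNAs encoded inside GABRA3 on chromosome X. They were chosen by name among the 1155 mature miRNAs of the table, with their levels in these libraries and earlier results of the same comparison known. The values that chose them are therefore described, and the p-values below carry no independent support. All 4 were listed, and all 4 were among the 810 tested, those that averaged 1 CPM or more (CPM is the reads of a miRNA scaled to a common total per library).

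The libraries were small RNA sequencing of the human line U2OS, established from an osteosarcoma, with 3 libraries of genotype LINC00673 and 3 of genotype NC. The series describes wildtype cells and cells with a stable shRNA against LINC00673, a long intergenic non-coding RNA, so the LINC00673 genotype was read as the knockdown and NC as its control. The labels do not say which construct, if any, the NC cells carried, how many clones stand behind a group, or whether replicates were separate cultures, and the p-values therefore reflect only how far these libraries differ, which may be technical. How far LINC00673 was reduced is not analysed here.

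MiR-105 and miR-767 are known as cancer-testis miRNAs, that is, miRNAs made in the male germ line, silent in most other adult tissues because of DNA methylation, and switched on in a share of tumours that have lost methylation. The known targets of miR-767-5p include TET1 and TET3, enzymes that oxidise 5-methylcytosine. The miR-105-5p arm is known from metastatic breast cancer, where it is secreted and acts on the tight junction transcript TJP1. A precursor hairpin gives a 5p and a 3p arm, of which usually 1 is loaded into Argonaute and kept while the other is degraded.

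The mature sequences (RefSeq, GRCh38.p14, matched for 4 of 4 members) are shown because the seed, bases 2 to 8 and here in capitals, defines which transcripts an arm can pair with.
hsa-miR-105-5p: uCAAAUGCucagacuccuguggu
hsa-miR-105-3p: aCGGAUGUuugagcaugugcua
hsa-miR-767-5p: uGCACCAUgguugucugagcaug
hsa-miR-767-3p: uCUGCUCAuaccccaugguuucu

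The 4 seeds all differ, so the arms form no seed family of their own. Among the mature human miRNAs of the RefSeq table, the seed of hsa-miR-767-5p was found at bases 3 to 9 of 3 others, the miR-29 family, which also target TET transcripts. The same letters, in capitals, are therefore shifted by 1 base.
hsa-miR-29a-3p: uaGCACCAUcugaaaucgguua
hsa-miR-29b-3p: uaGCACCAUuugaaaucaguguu
hsa-miR-29c-3p: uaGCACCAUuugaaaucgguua

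The seed of hsa-miR-105-5p recurred at bases 2 to 8 of hsa-miR-7853-5p, which is not analysed here. No other mature sequence of that table held the seeds of hsa-miR-105-3p or hsa-miR-767-3p at bases 2 to 8 or 3 to 9. Beyond the seeds, hsa-miR-105-3p and hsa-miR-767-5p shared a run of 8 bases, UGAGCAUG, at bases 10 to 17 of the former and 16 to 23 of the latter.

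The locus holds 3 hairpin genes on the minus strand of chromosome X (GRCh38), all inside intron 1 of the transcript GABRA3-201, which encodes a subunit of the GABA type A receptor. In the direction of transcription they are MIR105-2 (152394412 to 152394492), MIR767 (152393421 to 152393529) and MIR105-1 (152392219 to 152392299), within a span of 2274 bases. The intron is 86549 bases long, and MIR105-2 lies 56653 bases after exon 1. All 3 genes lie upstream of the transcript GABRA3-204, which starts within this intron 2721 bases beyond MIR105-1. MAGEA10, of a classical cancer-testis antigen family, is a neighbour at 152133310 to 152138578.

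The hairpins are shown to place the arms, which are in capitals, and to show why the MIR105 copies cannot be told apart.
MIR105-1: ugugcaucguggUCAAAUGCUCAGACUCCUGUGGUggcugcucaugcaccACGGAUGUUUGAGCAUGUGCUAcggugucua
MIR105-2: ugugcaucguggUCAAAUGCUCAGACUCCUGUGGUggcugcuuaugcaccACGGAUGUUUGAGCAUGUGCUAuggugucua
MIR767: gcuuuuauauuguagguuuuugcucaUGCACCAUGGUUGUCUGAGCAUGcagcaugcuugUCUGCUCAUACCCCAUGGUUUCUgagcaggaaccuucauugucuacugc

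The MIR105 hairpins are identical at 79 of 81 bases. The 2 differences, C43U and C73U counted from the 5′ end of MIR105-1, fall outside both arms. Reads of miR-105 can thus come from either of 2 hairpins, and reads of miR-767 from 1.

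**Figure D1:**
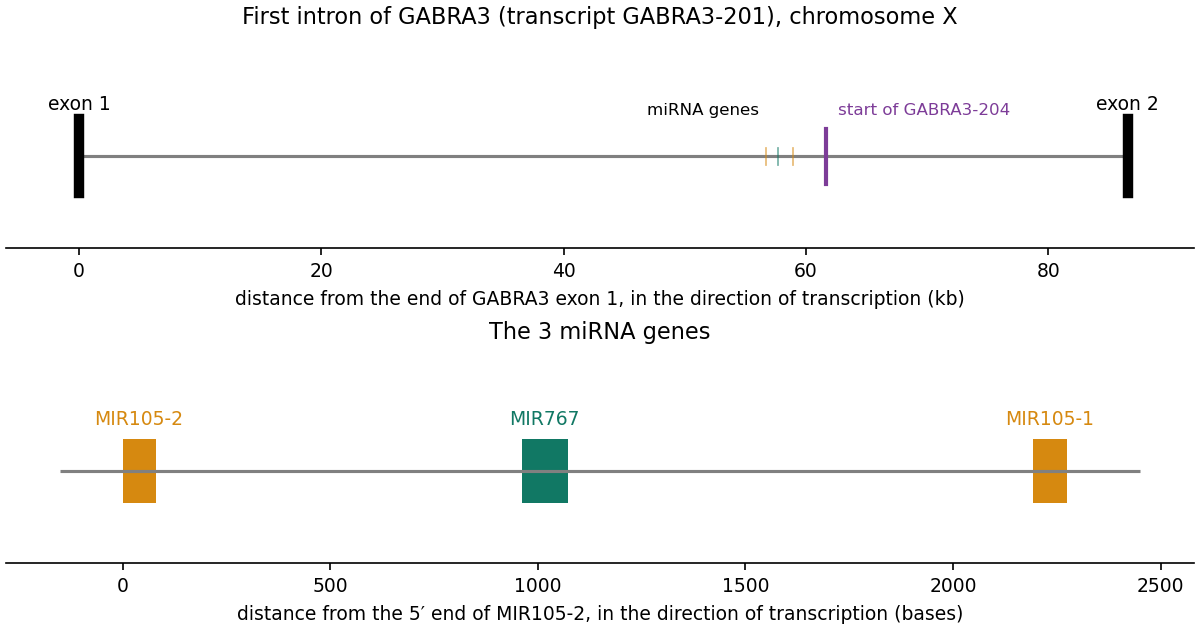
Upper panel: intron 1 of GABRA3-201 in kb from the end of exon 1, with exons as black bars, the 3 miRNA genes as thin coloured marks and the start of GABRA3-204 in purple. Lower panel: the 3 miRNA genes to scale, in bases from the 5′ end of MIR105-2. The genes sit within 2274 bases of each other, before the inner transcript start.

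The 6 libraries were shallow. In LINC00673 replicates 1, 2 and 3 the listed miRNAs held 265883, 534807 and 543144 reads. In NC replicates 1, 2 and 3 they held 331387, 215496 and 211242 reads. Depth was thus uneven between the groups, with LINC00673 replicates 2 and 3 the deepest. A read was worth 1.31 to 3.38 CPM. The part of depth in the correlations that follow, or in the values of rare miRNAs, was not tested. The Pearson correlation across miRNAs was 0.90 to 0.92 among the NC libraries, 0.94 to 0.96 among the LINC00673 libraries and 0.91 to 0.94 between the groups, with NC replicates 2 and 3 the least alike pair and LINC00673 replicates 2 and 3 the most alike. Results that rest on NC replicate 3 are given with and without it. As for the lineage of the cells, the 10 mesenchymal miRNAs on the list checked were all listed, at a summed 204206 to 230378 CPM with the knockdown and 154088 to 224995 CPM without. Most of this sum was hsa-miR-21-5p (mean 155790 CPM), while hsa-miR-214-3p (7.40 CPM) and hsa-miR-145-5p (2.42 CPM, 0 reads in 2 libraries) were no higher than the epithelial hsa-miR-200c-3p (7.56 CPM). The epithelial miR-200 family (4 of 5 listed) summed to at most 23.7 CPM, and the pluripotency and germ cell miRNAs (4 of 9 listed) to at most 6.21 CPM. The multiciliated and testis miRNAs (3 of 3 listed) summed to at most 10.52 CPM, and those of muscle (2 of 2 listed) to at most 4.14 CPM. The red cell and myeloid hsa-miR-486-5p (mean 22.96 CPM, 1 of 4 listed) and the liver hsa-miR-122-5p (15.1 CPM) had reads in every library. The neuron miRNA checked was not listed.

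The locus was active in every library. Its 4 arms together took 619, 1121 and 1047 reads in the LINC00673 libraries, in the order of replicates 1, 2 and 3 kept throughout. In the NC libraries they took 685, 338 and 488 reads. This was 0.157% to 0.233% of the listed miRNA reads. In CPM the summed level was 1628, 1510 and 1373 in the LINC00673 libraries and 1417, 1085 and 1651 in the NC libraries. The NC range enclosed the LINC00673 range. The sums averaged 1504 ± 128 CPM with the knockdown and 1385 ± 284 CPM without (SD, n = 3 each). The difference was 0.14 on the log2(CPM + 1) scale used throughout (exact permutation p = 0.7, two-sided, where 3 against 3 cannot go below 0.1). Without NC replicate 2 it was -0.028, so its sign rests on that library.

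By mean level over the 6 libraries, hsa-miR-767-5p ranked 68 and hsa-miR-105-5p 91 of 1155, with hsa-miR-105-3p at 204 and hsa-miR-767-3p at 282. The 5p arms were thus abundant, and the 3p arms were far below them. The levels of different miRNAs depend on adapter ligation as well as on amount. Next to hsa-miR-767-5p (876 CPM) stood hsa-miR-629-5p (891.98 CPM) and hsa-miR-20a-5p (875 CPM), the latter of the oncogenic miR-17-92 cluster. Next to hsa-miR-105-5p (494 CPM) stood hsa-miR-423-3p (503 CPM) and hsa-miR-130b-3p (482 CPM). Next to hsa-miR-105-3p (54.1 CPM) were hsa-miR-502-3p (54.5 CPM) and hsa-miR-1262 (53.4 CPM), and next to hsa-miR-767-3p (19.8 CPM) were hsa-miR-195-5p (20.5 CPM) and hsa-miR-320c (19.6 CPM). In each case the neighbours differed by less than the spread between replicates.

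Other germ line and neighbouring loci of the distal long arm of chromosome X were close to silent. The testis-enriched cluster of miR-506 to miR-514 had 8 of 18 arms listed, summing to 1 to 14 reads per library. Its highest members, hsa-miR-509-3p, hsa-miR-508-3p and hsa-miR-513b-5p, had means of 5.27, 3.66 and 1.69 CPM. The miR-888 cluster, known from the epididymis, had 5 of 9 arms listed and 5 to 19 reads per library, led by hsa-miR-891a-5p at 7.81, hsa-miR-892a at 7.67 and hsa-miR-888-5p at 3.25 CPM. The miRNAs of GABRE, another GABA receptor gene nearby (151953124 to 151974680), had 2 of 4 arms listed and 0 to 5 reads, with hsa-miR-224-5p at 3.39 and hsa-miR-452-5p at 0.44 CPM. A floor of 3 reads corresponds to 3.93 to 10.15 CPM in these libraries, so most of these means lie at or under it. With 338 to 1121 reads per library, the miR-105 and miR-767 arms together stood well above that level.

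**Figure D2:**
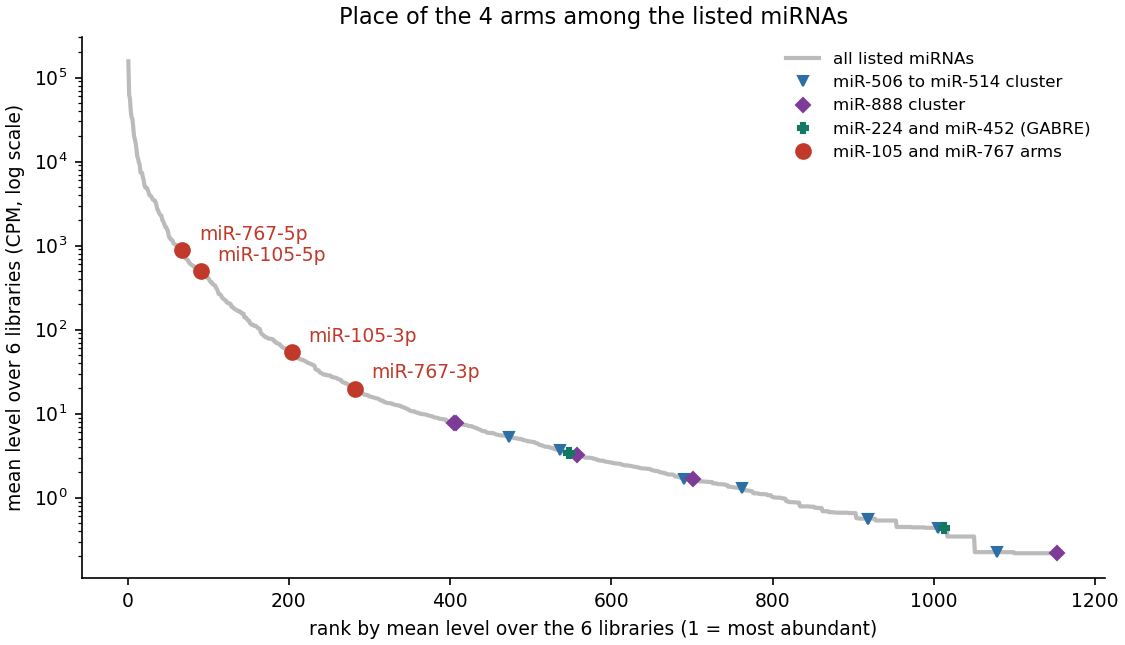
Mean level over the 6 libraries (CPM, log scale) of all 1155 listed miRNAs against their rank. The miR-105 and miR-767 arms (red) lie at ranks 68 to 282, and the listed arms of the miR-506 to miR-514 cluster, the miR-888 cluster and the GABRE miRNAs lie lower, at means of 7.81 CPM or less.

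Of the 4 arms, hsa-miR-105-5p, known to act on TJP1, had the smallest p between the groups in limma. Its level was 631, 579 and 503.5 CPM in LINC00673 replicates 1, 2 and 3 (240, 430 and 384 reads), and 325, 315 and 609 CPM in NC replicates 1, 2 and 3 (157, 98 and 180 reads). All LINC00673 libraries lay above NC replicates 1 and 2, while NC replicate 3 lay within the LINC00673 range. The group averages were 571 ± 64.2 and 416 ± 167 CPM (SD, n = 3 each). On the log2 scale the LINC00673 level was higher by 0.52 (SE 0.23, 95% interval 0.04 to 1.00). This did not pass over all miRNAs tested (limma adjusted p = 0.394, unadjusted p = 0.0365). Without NC replicate 3 the difference was 0.83 and passed limma (adjusted p = 0.0309), so this library decides the call. Leaving it out also raised the calls over all miRNAs from 2 of 810 to 28 of 801. In NC libraries the SD of this arm was 4.92 times the SD that counting reads alone would give, against 2.04 times in LINC00673 libraries.

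The hsa-miR-105-3p arm comes from the same hairpins. It was at 31.55, 64.7 and 43.3 CPM in LINC00673 libraries (12, 48 and 33 reads) and at 62.1, 38.5 and 84.6 CPM in NC libraries (30, 12 and 25 reads). The groups overlapped, with averages of 46.5 ± 16.8 and 61.7 ± 23.0 CPM. The log2 difference was -0.39 (95% interval -1.16 to 0.37, limma adjusted p = 0.809), and -0.13 without NC replicate 3.

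The TET-directed hsa-miR-767-5p was the most abundant of the 4 arms in every library. It was at 931, 841 and 808 CPM in LINC00673 libraries (354, 624 and 616 reads) and at 1016, 716 and 947 CPM in NC libraries (491, 223 and 280 reads). The LINC00673 values all lay inside the NC range. The averages were 859.7 ± 63.8 and 893 ± 157 CPM. The log2 difference was -0.042 (95% interval -0.43 to 0.35, limma adjusted p = 0.971). As a fold this interval runs from 0.742 to 1.27. The sign of so small a difference turned to above 0 with TMM scaling (0.12), which itself moves the median of all tested miRNAs from 0.06 to 0.18, and in edgeR (0.044). It also turned without LINC00673 replicate 3 (0.0021), NC replicate 1 (0.059) or NC replicate 3 (0.0089).

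The rarest arm, hsa-miR-767-3p, was at 34.2, 25.6 and 18.4 CPM in LINC00673 libraries (13, 19 and 14 reads) and at 14.5, 16.05 and 10.15 CPM in NC libraries (7, 5 and 3 reads). The groups did not overlap, the knockdown libraries being the higher, which was also the case for 63 of the 810 miRNAs tested (7.78%). NC replicate 3 was at the floor of 3 reads. The averages were 26.0 ± 7.92 and 13.6 ± 3.06 CPM. The log2 difference was 0.87 (95% interval -0.11 to 1.86, limma adjusted p = 0.514), and 0.69 without NC replicate 3. The counting interval of the lowest LINC00673 library (10.04 to 30.8 CPM, exact Poisson, 95%) overlapped that of the highest NC library (5.21 to 37.5 CPM). Such intervals cover counting error only.

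In all, 0 of the 4 arms passed limma, where 2 of 810 miRNAs passed (0.247%) and 90 had an unadjusted p under 0.05 (11.1%), hsa-miR-105-5p among them. The median log2 difference was 0.24 over the 4 arms and 0.06 over all miRNAs tested. Neither edgeR (adjusted p = 0.167 to 0.978) nor DESeq2 (adjusted p = 0.448 to 0.958) passed any of the 4 on the recovered reads. Whether the arms vary as 1 unit cannot be settled from 6 libraries and the few reads of the 3p arms. Over the 6 libraries, the Pearson correlation of the log2 levels was 0.25 between the 5p arms, 0.12 between the arms of miR-105, -0.11 between those of miR-767 and -0.66 between the 3p arms, values that share their libraries and depth.

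**Figure D3:**
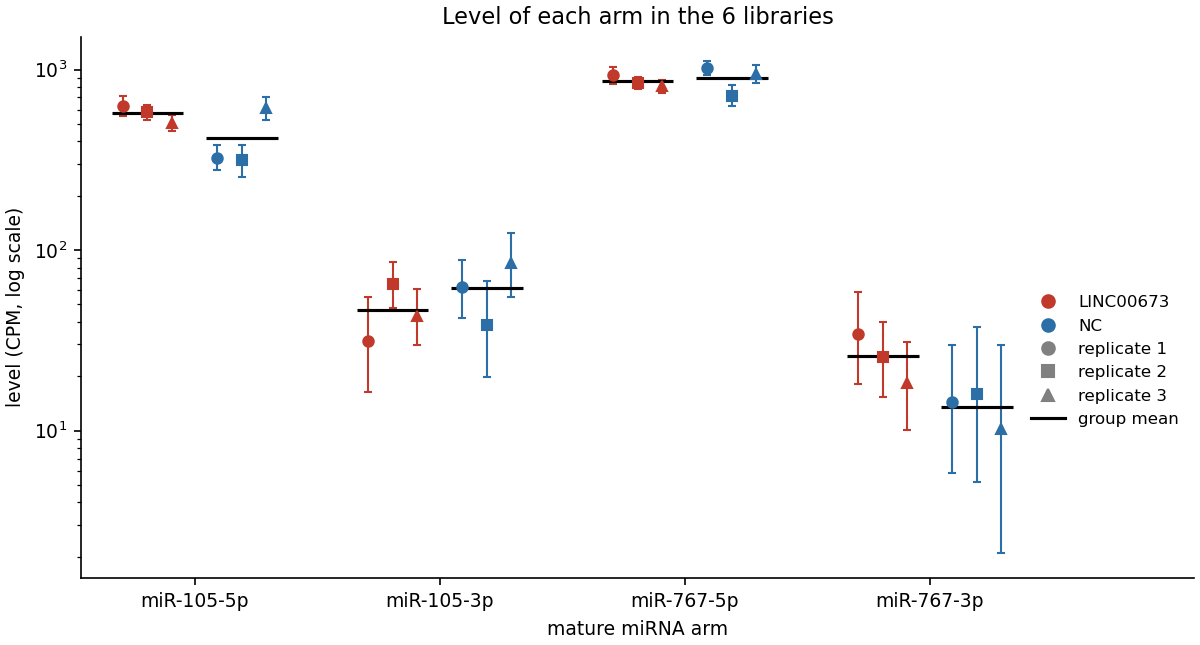
Level (CPM, log scale) of the 4 arms in each LINC00673 (red) and NC (blue) library, with exact Poisson 95% intervals as bars and the group mean as a black line. For miR-105-5p NC replicate 3 (609 CPM) sits with the LINC00673 libraries, and for miR-767-3p all LINC00673 libraries lie above the NC libraries.

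The ratio of 5p to 3p reads does not depend on the scaling of a library. For miR-105 it was 20, 8.96 and 11.6 in LINC00673 replicates 1, 2 and 3 and 5.23, 8.17 and 7.2 in NC replicates 1, 2 and 3. All 3 LINC00673 ratios lay above all 3 NC ratios, the closest being those of the replicates numbered 2. The 5p arm made up 95.2%, 90.0% and 92.1% of miR-105 reads in LINC00673 libraries and 84.0%, 89.1% and 87.8% in NC libraries. The exact Clopper-Pearson 95% intervals of the closest libraries overlapped (86.9% to 92.5% and 81.7% to 94.2%). The log2 ratios differed by 0.91 (SE 0.38, 95% interval 0.03 to 1.79; limma over all arm pairs, adjusted p = 0.4595, unadjusted p = 0.0446; exact permutation p = 0.1, the smallest possible). Without LINC00673 replicate 1, which had the highest ratio, the difference was 0.59.

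For miR-767 the ratio went the other way. It was 27.2, 32.8 and 44.0 in LINC00673 libraries and 70.2, 44.6 and 93.3 in NC libraries. All 3 LINC00673 ratios lay below all 3 NC ratios, though LINC00673 replicate 3 and NC replicate 2 were almost level. The 5p arm made up 96.5%, 97.0% and 97.8% of miR-767 reads in LINC00673 libraries and 98.6%, 97.8% and 98.9% in NC libraries, and these shares rest on 13, 19, 14, 7, 5 and 3 reads of the 3p arm in the same order. The LINC00673 minus NC difference in log2 ratio was -0.92 (SE 0.44, 95% interval -1.95 to 0.12; limma adjusted p = 0.553; exact permutation p = 0.1, the smallest possible). Without NC replicate 3, which had the highest ratio on 3 reads of the 3p arm, the difference was -0.68.

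These separations have to be read against the other miRNAs. Of 184 miRNAs with both arms tested, 12 had all LINC00673 ratios above all NC ratios (6.52%), miR-105 among them, and 13 had them below (7.07%), miR-767 among them. In limma 0 of 184 arm pairs passed (0%), while 20 had an unadjusted p under 0.05, 10 in each direction. In size, 55 pairs had a difference at least as large as that of miR-105 and 54 at least as large as that of miR-767, against a median size of 0.54 over all pairs. In most of these pairs the less abundant arm was below that of miR-105 (54.1 CPM) and of miR-767 (19.8 CPM), so the counts do not compare pairs of like level. The preference for the 5p arm itself was shared by 102 of the 184 pairs (55.4%). Averaged over the libraries it was stronger in miR-767 (log2 ratio 5.49, with 24 pairs higher) than in miR-105 (3.19, with 46 pairs higher).

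**Figure D4:**
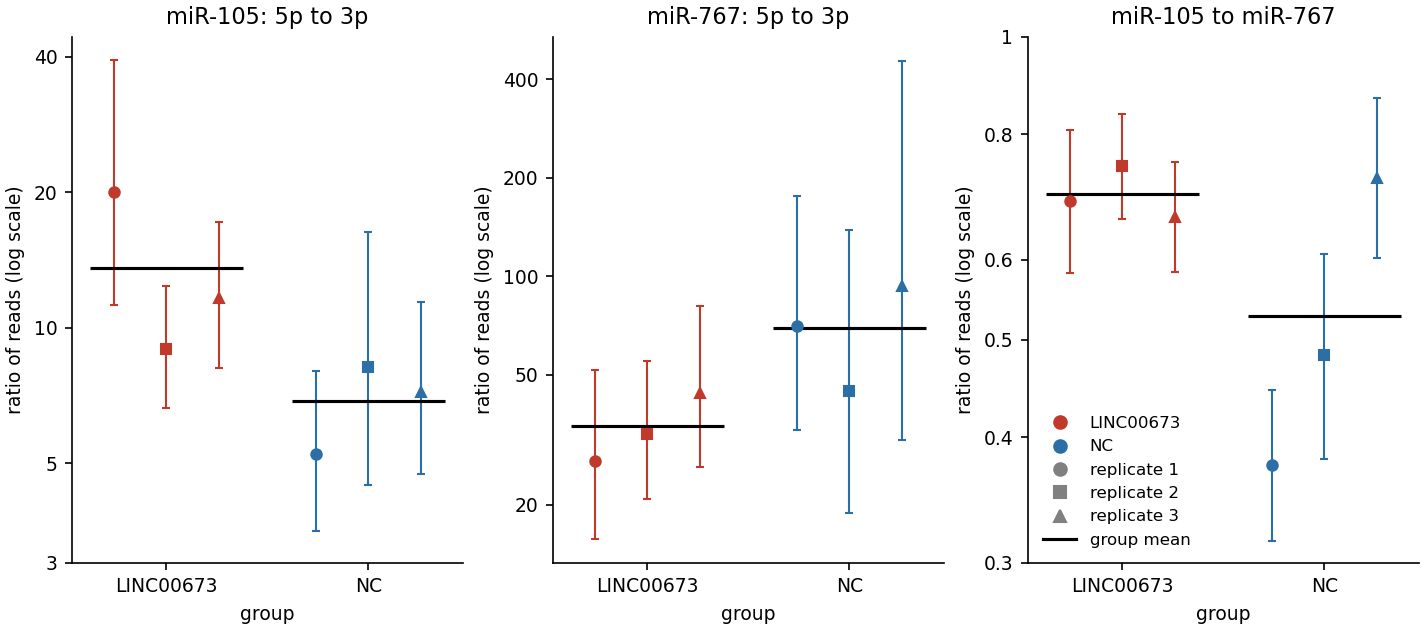
Ratio of reads (log scale) per library, with exact 95% binomial intervals as bars and the group mean of the ratios as a black line, for 5p to 3p of miR-105, 5p to 3p of miR-767 and miR-105 to miR-767. The arm ratio of miR-105 is higher and that of miR-767 lower in all 3 LINC00673 libraries, and in the third panel NC replicate 3 sits with the LINC00673 libraries.

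**Figure D5:**
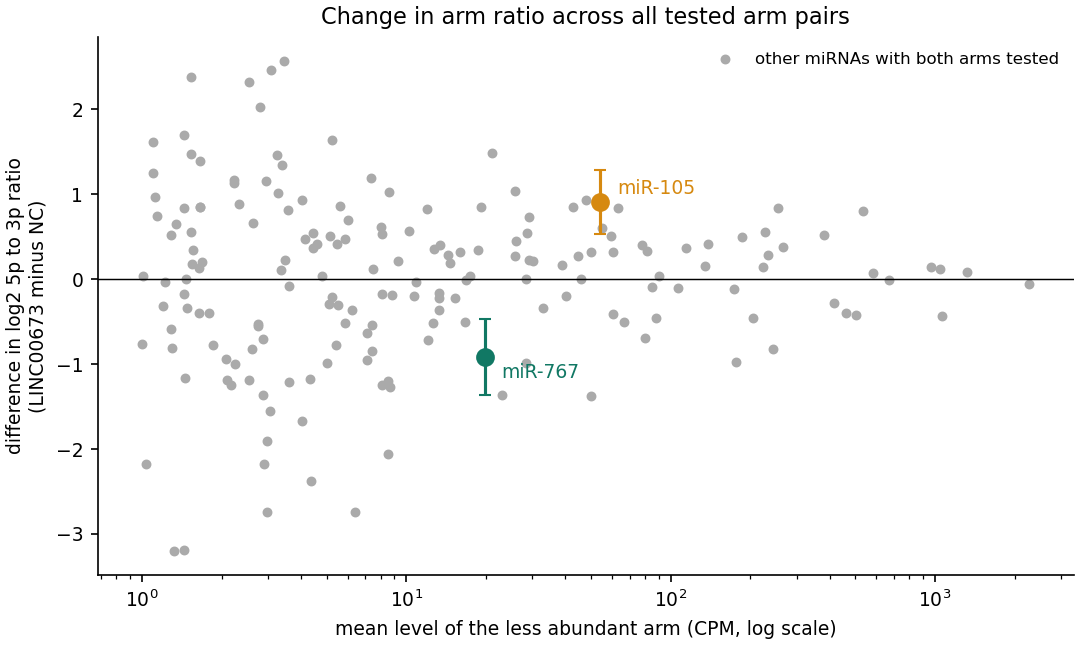
Difference in log2 5p to 3p ratio (LINC00673 minus NC) of the 184 tested arm pairs against the mean level of the less abundant arm (CPM, log scale), with the standard error drawn for miR-105 (0.91) and miR-767 (-0.92). Many other pairs lie as far from 0, most of them with a less abundant minor arm.

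The balance between the miRNAs of the locus also differed by library. There were 0.687, 0.743 and 0.662 reads of miR-105 for each read of miR-767 in LINC00673 libraries, and 0.376, 0.482 and 0.724 in NC libraries. The LINC00673 libraries were close to each other, NC replicates 1 and 2 lay below them, and NC replicate 3 lay among them. The difference in log2 ratio was 0.45 (exact permutation p = 0.3), where 3 against 3 cannot go below 0.1. It was 0.71 without NC replicate 3 and 0.24 without NC replicate 1. Since there are 2 MIR105 hairpins and 1 MIR767 hairpin, the read counts do not follow the gene number. Ligation differs between sequences, and how reads that match both MIR105 hairpins were counted was not given. The part of either was not tested.

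As for other miRNAs that act on TET transcripts, 9 of 9 on the list were tested and 0 passed limma, with a log2 difference above 0 for 5 and below 0 for 4 and a median of 0.04. At an unadjusted p under 0.05 in limma there were 4 of the 9, against 11.1% of all tested. With the knockdown the averages of hsa-miR-26a-5p and hsa-miR-125b-5p were higher, and those of hsa-miR-101-3p and hsa-miR-29b-3p lower. The groups overlapped for hsa-miR-125b-5p, where NC replicate 1 (14063 CPM) lay above every LINC00673 library (12304 to 13665 CPM). In edgeR 2 passed (2.72% of all 810 miRNAs), hsa-miR-26a-5p (log2 difference 0.62) and hsa-miR-29b-3p (-0.54). In DESeq2 2 passed (3.1% of the 323 with an adjusted p), hsa-miR-101-3p (-0.62) and hsa-miR-29b-3p (-0.65). The most abundant of the list were hsa-miR-29a-3p, hsa-miR-7-5p (31054 ± 7020.4 with the knockdown, 33631 ± 6001 CPM without) and hsa-miR-125b-5p (13185 ± 765 and 9943 ± 3587 CPM). The miRNAs that share the shifted seed with hsa-miR-767-5p outnumbered it. Summed, the 3 miR-29 arms were at 71849 to 75434 CPM with the knockdown and 69132 to 79695 CPM without. Of these, hsa-miR-29a-3p stood at 64452 ± 2820 against 60784 ± 3919 CPM (log2 difference 0.09, limma adjusted p = 0.916), hsa-miR-29c-3p at 940.0 ± 78.7 against 925 ± 191 CPM (0.04, adjusted p = 0.971) and hsa-miR-29b-3p at 8475 ± 1059 against 13325 ± 1571 CPM (-0.65, adjusted p = 0.0571). The last passed edgeR (adjusted p = 0.0412) and DESeq2 (adjusted p = 0.0217). The level of hsa-miR-767-5p was thus near that of hsa-miR-29c-3p, the least abundant of the 3.

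Of the miR-506 to miR-514, miR-888 and GABRE lists, 0 members passed limma. An unadjusted p under 0.05 in limma was reached by 2 of the 4 tested in the miR-506 to miR-514 cluster, against 11.1% of all tested. These were hsa-miR-508-3p and hsa-miR-509-3p, on 2 to 8 reads in LINC00673 libraries and 0 to 2 in NC libraries. LINC00673 replicates 2 and 3 were also the deepest libraries. For members of these lists edgeR passed 0, and DESeq2 gave no adjusted p. In the miR-506 to miR-514 cluster, 2 of 4 tested members were above 0 and 2 below (median log2 difference 0.83), and of the 4 tested in the miR-888 cluster likewise 2 and 2 (median -0.09), all at or near the floor of 3 reads. Only hsa-miR-224-5p was tested among the GABRE miRNAs (-0.23, limma adjusted p = 0.970).

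The miRNAs whose pattern over the 6 libraries was most like the summed level of the locus, among 358 that averaged 10 CPM or more, were hsa-miR-548ae-5p, hsa-miR-500a-3p, hsa-miR-339-5p, hsa-miR-342-3p and hsa-miR-216a-5p (Pearson r = 0.97, 0.96, 0.95, 0.95 and 0.94 on log2 levels). This likeness rests on 6 libraries. Of these, hsa-miR-500a-3p, encoded on chromosome X, was at 168, 160.3 and 148 CPM with the knockdown and 145, 132 and 173 CPM without, lowest like the locus in NC replicate 2.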

How the data were processed

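The authors deposited 1 table of CPM values per mature miRNA for the 6 libraries, per the labels from total RNA and a NEBNext small RNA kit. Per the submitters' processing notes, the build was hg38. Which aligner, counter and miRBase release were used, and how reads shared by several miRNAs were counted, was not given in the sources used here. In each library the CPM values rose in steps of 1 read (100% of values within 0.1 read of a whole number), from which totals of 295567 to 762663 reads and the reads per miRNA were recovered. No molecular identifiers are recorded, so intervals cover counting error only. Ligation bias affects comparisons between miRNAs, and whether it differed between libraries was not tested.

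Levels were tested with limma 3.58.1 (R 4.3.3) on log2(CPM + 1), two-sided, with an intensity trend and Benjamini-Hochberg adjustment over all 810 miRNAs, at a threshold of 0.05. Arm ratios were tested likewise over 184 pairs, with the variance trend on the less abundant arm. Sums and the ratio of miR-105 to miR-767 had exact permutation tests (scipy 1.17.1). The scripts were tested on simulated data. Alternatives used edgeR 4.0.16 and DESeq2 1.42.0 on the recovered reads, which passed 22 and 10 miRNAs. Named beside the members were the 5 most alike miRNAs, the neighbours in level, and the 3 most abundant of each list. Genes are from GENCODE release 29, and sequences from RefSeq, with 1017 of 1155 names matched. The members and lists were chosen with earlier results of these data known.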

Additional observations from a re-analysis of the deposited data

How the results depend on the processing

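The values for hsa-miR-105-3p, hsa-miR-767-3p and both arm ratios kept their direction and did not pass a threshold under every alternative run (17, 17, 12 and 12). The ratio of miR-105 to miR-767 kept its direction under 8, and its exact test could not pass. Leaving out 1 library gave -0.69 to -0.13 for hsa-miR-105-3p, 0.66 to 1.09 for hsa-miR-767-3p, 0.59 to 1.16 and -1.19 to -0.68 for the arm ratios of miR-105 and miR-767, and 0.24 to 0.71 for the ratio of miR-105 to miR-767. For hsa-miR-105-5p it gave 0.35 to 0.83, past the threshold without NC replicate 3, with an adjusted p of 0.0309 to 0.769 over 17 alternatives. For hsa-miR-767-5p it gave -0.19 to 0.059 with 5 reversals in all, 0.12 with TMM factors and 0.044 in edgeR among them, and for the summed level -0.028 to 0.27. The cause of these moves was not tested.

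Over all miRNAs, 2 calls became 0 with a pseudocount of 0.5, rescaling to the listed miRNAs, a minimum of 10 CPM or no trend, and 8 with a pseudocount of 5, 13 with TMM factors, 5 without the 10 most abundant, 11 without a filter, 22 in edgeR and 10 in DESeq2. Leaving out 1 library gave 0 to 28 calls, the 28 without NC replicate 3. Whether the replicate numbers pair the libraries was not settled. The correlations of deviations were weak (0.12, 0.15 and 0.026 for numbers 1, 2 and 3), although each library correlated best with its own number. The fit with a replicate block gave 2 calls, the same differences and no call among the 4 arms or their ratios (0.91 for miR-105, adjusted p = 0.531). Depth limits the 3p arms most, at 3 to 19 reads for hsa-miR-767-3p.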

Other observations

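Chosen after the values were seen, the 5 miRNAs (of those averaging 10 CPM or more) whose levels over the 6 libraries were most like hsa-miR-105-5p alone were hsa-miR-132-5p, hsa-miR-221-5p, hsa-miR-181a-5p, hsa-miR-222-3p and hsa-miR-15a-5p (Pearson r = 0.98, 0.96, 0.96, 0.95 and 0.94). NC replicate 3 stood apart from NC replicates 1 and 2 in these as in hsa-miR-105-5p, which follows from how they were chosen. The CREB-induced hsa-miR-132-5p was at 28.9, 33.7 and 26.2 CPM in LINC00673 libraries and at 4.14, 3.21 and 30.45 CPM in NC libraries. The level of hsa-miR-221-5p, the minor arm of a chromosome X hairpin whose major arm restrains CDKN1B, was 2004, 1354 and 1284 CPM against 672, 799.5 and 1783 CPM. None of the 5 miRNAs most like hsa-miR-767-5p was among them. The miRNAs most like that arm were hsa-miR-1306-5p, hsa-miR-1269a, hsa-miR-3200-3p, hsa-miR-10b-3p and hsa-miR-3605-3p (r = 0.95, 0.90, 0.90, 0.88 and 0.87). These lists describe 6 libraries and do not test whether the 5p arms of the locus vary apart.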
